A study of Danio rerio with 20 samples.

Results

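Haemoglobin genes were followed through liver tumors and normal livers of zebrafish (Danio rerio). Members were the probes whose single gene symbol begins with hba or hbb followed by further letters and a digit. Of 16512 probes, 4 met this rule, 1 for each of 4 genes. These were hbaa1 (probe 5270765), an adult alpha-globin gene, and hbba1 (probe 5270396), an adult beta-globin gene, with hbae3 (probe 5270853) and hbbe1.2 (probe 5270382), an embryonic alpha- and an embryonic beta-globin gene. A further probe, 5281975, carries the 3 symbols hbae1.1, hbae1.2 and hbae1.3 and was kept apart, because it names no single gene.

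Haemoglobin carries oxygen in red blood cells as a tetramer of alpha and beta globin chains, each holding a haem group. Zebrafish red cells keep their nucleus and circulate with globin mRNA, so RNA of a whole liver includes that of the blood in it. The embryonic chains are made mainly in embryos and larvae and give way to the adult chains as the fish mature.

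RNA was measured on 2-colour microarrays, on 10 arrays of normal liver and 10 arrays of liver tumor. The labels describe the tumors as induced by carcinogens and name no agent, strain, age or sex. Each liver sample was labelled with Cy5 and hybridised with normal liver RNA labelled with Cy3, which served as the reference on all 20 arrays without a dye swap. The groups were read from the C or T in the titles, taken as normal liver and tumor, a reading that fits the 10 and 10 arrays of the design. The labels do not tell whether arrays of a group are different fish. The p-values therefore reflect only how much these samples vary, and part of that variation may be technical.

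Values are log2 ratios of liver sample to reference. This direction is likely from the order of the channels and is not stated; with the opposite direction all signs below would be reversed. A value of 0 means the level of the reference, and levels of different genes cannot be set against each other. Array medians ran from -0.15 to 0.20 in normal liver and from -0.16 to 0.02 in tumors. Spot brightness is not in the table used here, and the share of values that look like ratios of small whole numbers was taken as the share of dim spots. That share was 2.55% to 7.87% on normal arrays and 0.654% to 7.16% on tumor arrays. The highest tumor share was that of tumor 9, followed by tumor 10 at 3.38%, and every other tumor array had at most 1.68%. Some matches are accidental. With the constant subtracted from each array shifted, the share still ran from 0.260% (tumor 1) to 0.587% (normal 2). Tumor 4, at 0.654%, lay near its own shifted value of 0.430%. Hepatocyte markers were present as a check of the tissue, with 9 of 17 listed genes measured. Averaged over these 9 genes, the log2 ratio was -0.47 to 0.43 on normal arrays and -3.37 to -0.88 on tumor arrays.

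Haemoglobin genes were counted by symbol or synonym in the RefSeq gene order of assembly GRCz12tu, used for names and neighbours only. On chromosome 3 this gave 12, 11 by a symbol of this form and 1, si:ch211-5k11.8, by a synonym, and on chromosome 12 it gave 4. The gene ba1l also lies within the cluster on chromosome 3, but its symbol is not of this form and it was not counted. The 4 measured genes all belong to the cluster on chromosome 3, where hbaa1 and hbba1 are direct neighbours and hbbe1.2 and hbae3 lie further along among the embryonic genes. The same cluster also holds copies of the adult genes, hbaa2 and hbba2 among them. A probe may bind RNA of a copy, so each value may include it, and the probe sequences were not used here.

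The adult pair moved between tumors over a wide range. The hbaa1 log2 ratio had a lowest value of 0.06, a median of 0.80 and a highest value of 1.88 on the normal arrays, and of -2.74, -0.72 and 3.29 on the tumor arrays. All 10 normal arrays were above 0, against 3 of the tumor arrays (tumors 4, 7 and 9). Of the tumor arrays, 7 lay below every normal array and 1, tumor 4, above every normal array, so the groups overlapped. From its lowest to its highest array hbaa1 covered a 65.4-fold range in tumors and a 3.54-fold range in normal liver.

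The partner gene hbba1 did much the same. Its log2 ratio had a lowest value of 0.15, a median of 0.83 and a highest value of 1.81 in normal liver, and of -2.89, -0.72 and 2.20 in tumors. Again 10 normal and 3 tumor arrays were above 0, 7 tumor arrays lay below all normal arrays and 1 lay above them. The range was 34.1-fold in tumors and 3.16-fold in normal liver. Tumor 2 was the lowest array and tumor 4 the highest for both adult genes.

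The embryonic genes stayed within narrower limits. The embryonic alpha gene hbae3 had a lowest log2 ratio of -0.29, a median of -0.08 and a highest of 0.40 in normal liver, and of -1.02, -0.42 and 0.00 in tumors. For hbae3, 7 tumor arrays lay below every normal array and 3 normal arrays above every tumor array. The embryonic beta gene hbbe1.2 had a lowest log2 ratio of -1.04, a median of -0.57 and a highest of 0.30 in normal liver, and of -1.08, -0.77 and -0.09 in tumors. Here 1 tumor array lay below the normal range, and normal 5 was the single array of the 20 above 0. The probe with 3 symbols had a lowest value of -0.48, a median of 0.04 and a highest of 0.64 in normal liver, and of -0.60, -0.01 and 0.13 in tumors.

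**Figure D1:**
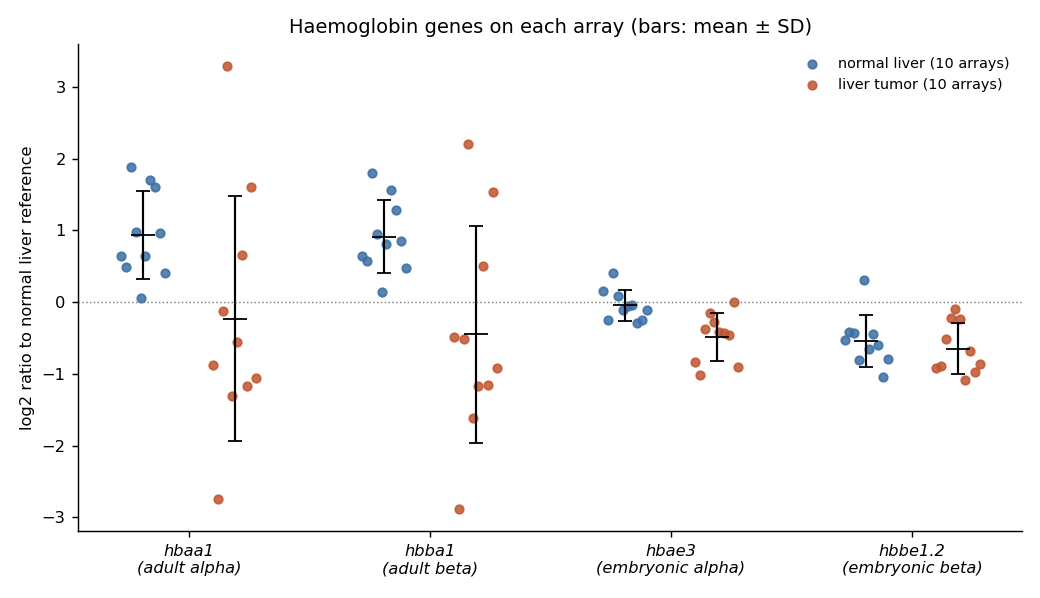
Log2 ratio to the normal-liver reference (vertical axis) of each haemoglobin gene on the 10 normal and 10 tumor arrays, with each point 1 array and the mean and SD drawn beside the points. The tumor points of hbaa1 and hbba1 run from below -2.7 to above 2 and surround the normal points, while those of hbae3 and hbbe1.2 stay between -1.08 and 0.00.

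The main comparison asked which haemoglobin genes differ between tumor and normal liver. Of the 4 genes, 1 passed the test, the embryonic alpha gene hbae3, which was lower in tumors. Its mean log2 ratio was -0.05 ± 0.21 (SD, n = 10) in normal liver and -0.49 ± 0.33 (SD, n = 10) in tumors, a difference of -0.44 ± 0.14 (SE; 95% interval -0.72 to -0.16) and 1.36-fold lower. The adjusted p for hbae3 was 0.0386 by limma over the 15780 features. Across all features 1712, or 10.8%, were called, with 5.91% higher and 4.94% lower, so a single call among 4 genes gives little to read about the group. In RNA of whole tissue, fewer cells of a type and less RNA per cell cannot be told apart.

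The hbae3 call lay near the threshold. Leaving out 1 array at a time gave differences of -0.50 to -0.38, and the adjusted p ran from 0.0160 to 0.0737, so that the call was lost in 13 of 20 fits. With the share of dim spots as a covariate the hbae3 difference was -0.27 ± 0.19 (SE), with an adjusted p of 0.653 by limma. In that fit 54 of all features, or 0.342%, were called. The mean share of dim spots was 5.86% on normal and 1.97% on tumor arrays, and its part in the hbae3 difference was not tested.

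The adult genes had larger mean differences and did not pass. Blocking on the replicate number called 0 of the 4 genes and 7.94% of all features, and the labels do not say whether equal numbers pair the arrays. The mean hbaa1 log2 ratio was 0.93 ± 0.61 (SD, n = 10) in normal liver and -0.23 ± 1.70 (SD, n = 10) in tumors. The difference was -1.16 ± 0.53 (SE; 95% interval -2.26 to -0.07), 2.24-fold lower in tumors, with an adjusted p of 0.162 by limma. For hbba1 the means were 0.91 ± 0.51 and -0.45 ± 1.51 (SD, n = 10 each), the difference was -1.36 ± 0.46 (SE; 95% interval -2.32 to -0.40), 2.57-fold lower, and the adjusted p was 0.0623 by limma. These intervals reach from near 0 to more than 2 log2 units, so the arrays leave the size of the mean difference wide.

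The outcome of the test for the adult genes turned on single tumors. Without tumor 4 the hbaa1 difference was -1.56 ± 0.41 (SE), with an adjusted p of 0.0185 by limma, and the hbba1 difference was -1.66 ± 0.40 (SE), with an adjusted p of 0.0111. Of the 20 fits with 1 array left out, hbaa1 passed in this 1 and hbba1 passed in 2, the other being the fit without tumor 9 (adjusted p 0.0204). Tumor 9 had the highest share of dim spots of the tumor arrays, 7.16%. With the share of dim spots as a covariate hbaa1 differed by -0.63 ± 0.76 (SE) and hbba1 by -0.66 ± 0.65 (SE), with adjusted p of 0.798 and 0.745 by limma.

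The embryonic beta gene hbbe1.2 had means of -0.54 ± 0.36 in normal liver and -0.65 ± 0.36 in tumors (SD, n = 10 each). The difference was -0.11 ± 0.16 (SE; 95% interval -0.45 to 0.23), with an adjusted p of 0.715 by limma. The probe with 3 symbols, for embryonic alpha genes, differed by -0.21 ± 0.14 (SE; 95% interval -0.50 to 0.08), with an adjusted p of 0.342. The 5 probes of the cluster all had a tumor mean below the normal mean, and 1 of them passed the test. The median difference over all features was -0.01, so lower tumor means were common. The 5 are not separate observations either, because some of them varied together (r = 0.975 between hbaa1 and hbba1).

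**Figure D2:**
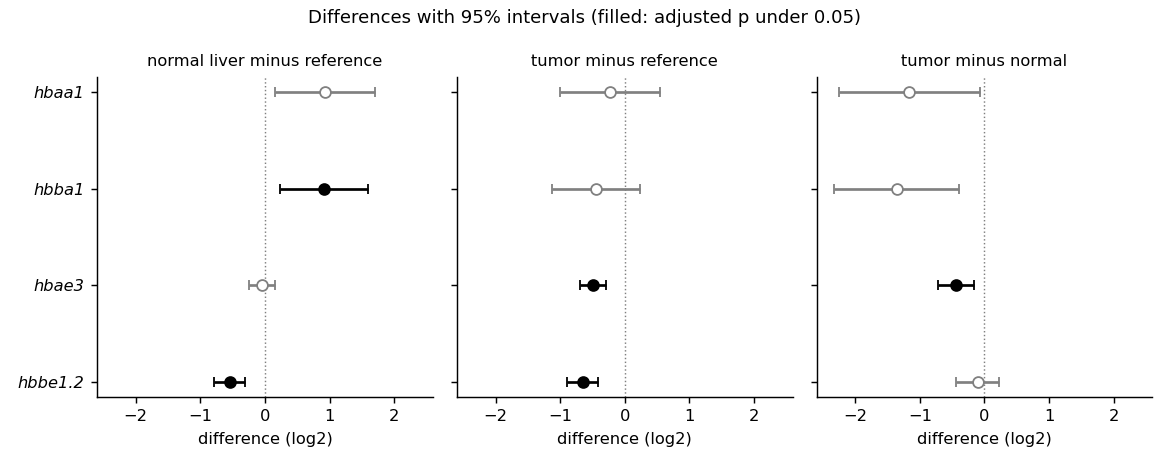
Difference in mean log2 ratio between groups (horizontal axis, with the 95% interval) for each haemoglobin gene, for tumor minus normal and for each group minus the reference. The intervals of the adult genes are the widest, and for tumor minus normal the value of hbae3 is -0.44 and that of hbba1 is -1.36.

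Each group was next set against the reference, which is itself normal liver RNA. Because dyes were not swapped, a gene's dye effect and its difference from the reference cannot be told apart. In normal liver hbba1 was higher than the reference by 0.91 ± 0.33 (SE; 95% interval 0.23 to 1.59; 1.88-fold), with an adjusted p of 0.0465 by limma. The neighbouring hbaa1 was at 0.93 ± 0.37 (SE; 95% interval 0.16 to 1.71; 1.91-fold), with an adjusted p of 0.0706. The embryonic hbbe1.2 was lower than the reference by a log2 difference of -0.54 ± 0.12 (SE; 1.46-fold), with an adjusted p of 0.00156, while hbae3 was at -0.05 ± 0.10 (SE; adjusted p 0.767). Thus 2 of 4 genes were called, in opposite directions, where 25.0% of all features were called.

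This fit takes the spread from both groups, and the adult genes spread more in tumors. On the 10 normal arrays alone hbaa1 was at 0.93 ± 0.18 (SE), with an adjusted p of 0.00299 by limma, and hbba1 had an adjusted p of 0.00151. That fit, added after the data were seen, called 21.2% of all features. With the share of dim spots as a covariate hbba1 stood at 0.56 with an adjusted p of 0.483, and hbbe1.2 at -0.36 with an adjusted p of 0.110. In the fit of both groups the hbba1 call was lost in 13 of 20 fits with 1 array left out, and that of hbbe1.2 held in all 20.

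Tumors against the reference gave 2 calls, both of embryonic genes. The level of hbae3 was lower than the reference by a log2 difference of -0.49 ± 0.10 (SE; 95% interval -0.69 to -0.29), with an adjusted p of 0.000642 by limma. That of hbbe1.2 was lower by -0.65 ± 0.12 (SE; 95% interval -0.89 to -0.41), with an adjusted p of 0.000244. The adult genes hbaa1 and hbba1 were at -0.23 ± 0.37 and -0.45 ± 0.33 (SE), with adjusted p of 0.684 and 0.327. Across all features 27.7% were called and 14.1% were called lower. The tumor arrays fitted alone, an alternative added after the data were seen, also gave these 2 calls, with 28.8% of all features called. Both calls held in all 20 fits with 1 array left out. The tumor and normal groups share this reference, so these values are not independent of the first comparison.

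The spread of each gene within a group was then described. In tumors the SD of hbaa1 was 1.70 against 0.611 in normal liver, 2.79 times as large, and that of hbba1 was 1.51 against 0.511, 2.95 times as large. The median SD over all features was 0.378 in tumors and 0.438 in normal liver, and 39.6% of features had the larger SD in tumors. Ranked by SD in tumors, hbaa1 was number 105 and hbba1 number 176 of 15780 features. In normal liver 75.0% of features had a smaller SD than hbaa1 and 62.4% a smaller SD than hbba1. The embryonic genes had SD of 0.333 (hbae3) and 0.359 (hbbe1.2) in tumors, against 0.213 and 0.357 in normal liver.

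The difference in spread was tested on the mean distance of the arrays from the median of their group. For hbaa1 this distance was 1.203 in tumors and 0.489 in normal liver, a two-sided permutation p of 0.0914 and 0.183 after adjustment over the 4 genes. For hbba1 it was 1.099 against 0.381, with a permutation p of 0.0456 and 0.182 after adjustment. None of the 4 genes passed this permutation test after adjustment, and 1 had an unadjusted p under 0.05. After quantile normalization of the arrays hbba1 passed, with a difference of 1.11 and an adjusted p of 0.0146. Without tumor 4 the difference of hbaa1 was 0.384 and that of hbba1 0.494, each with an adjusted permutation p of 0.44.

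**Figure D3:**
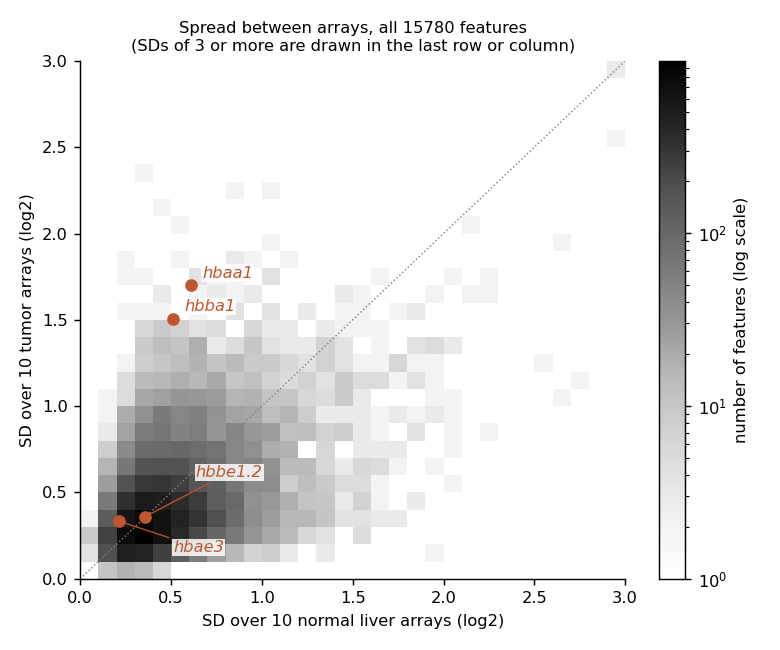
SD of the log2 ratio over the 10 normal arrays (horizontal axis) and the 10 tumor arrays (vertical axis), with the haemoglobin genes as points over the number of features per bin in grey. Both adult genes lie far above the line of equal SD, at 1.70 and 1.51 in tumors, and both embryonic genes lie among the bulk of features.

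The adult alpha and beta genes moved together from array to array. The difference of their log2 ratios, hbaa1 minus hbba1, was 0.03 ± 0.14 in normal liver and 0.22 ± 0.41 in tumors (SD, n = 10 each), while in tumors each gene alone ranged over several log2 units. The largest difference of the 2 genes was 1.09, on tumor 4. Deviations from the group mean of hbaa1 and hbba1 correlated at r = 0.975 and rho = 0.928 over the 20 arrays, each with a permutation p of 1e-05, the smallest that 100000 resamples can give, and 0.00015 adjusted over the 30 relations computed. Without the 2 arrays farthest from the hbaa1 median r was 0.955. Within normal liver r was 0.983 and within tumors 0.974. A probe may bind copies of its gene, and the part of such binding was not tested.

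The embryonic alpha gene followed the adult genes more loosely. Between hbaa1 and hbae3 rho was 0.552 over the 20 arrays, with an adjusted permutation p of 0.0675. Their r was 0.648, with a permutation p of 0.0018 and 0.0135 after adjustment. It was 0.740 within tumors (adjusted permutation p 0.0635) and 0.337 within normal liver, where it turned to -0.261 without the 2 farthest arrays. Between hbba1 and hbae3 r was 0.623, with an adjusted permutation p of 0.0194. The difference in r between the groups was not tested.

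The embryonic beta gene did not follow them. Between hbaa1 and hbbe1.2 r was 0.037 (rho -0.126), with a permutation p of 0.874, and between hbae3 and hbbe1.2 it was 0.283, with a permutation p of 0.229. Instead hbbe1.2 ran against the share of dim spots, with r = -0.531 (adjusted permutation p 0.0716) and rho = -0.594 (adjusted permutation p 0.0455). After quantile normalization these were -0.248 and -0.0917, and neither passed (adjusted permutation p 0.692 and 0.846). For hbaa1, hbba1 and hbae3 the r with that share was 0.214, 0.319 and 0.319, none of which passed. After quantile normalization hbae3 did pass, with r = 0.641 (adjusted permutation p 0.0124) and rho = 0.562 (adjusted permutation p 0.0424).

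**Figure D4:**
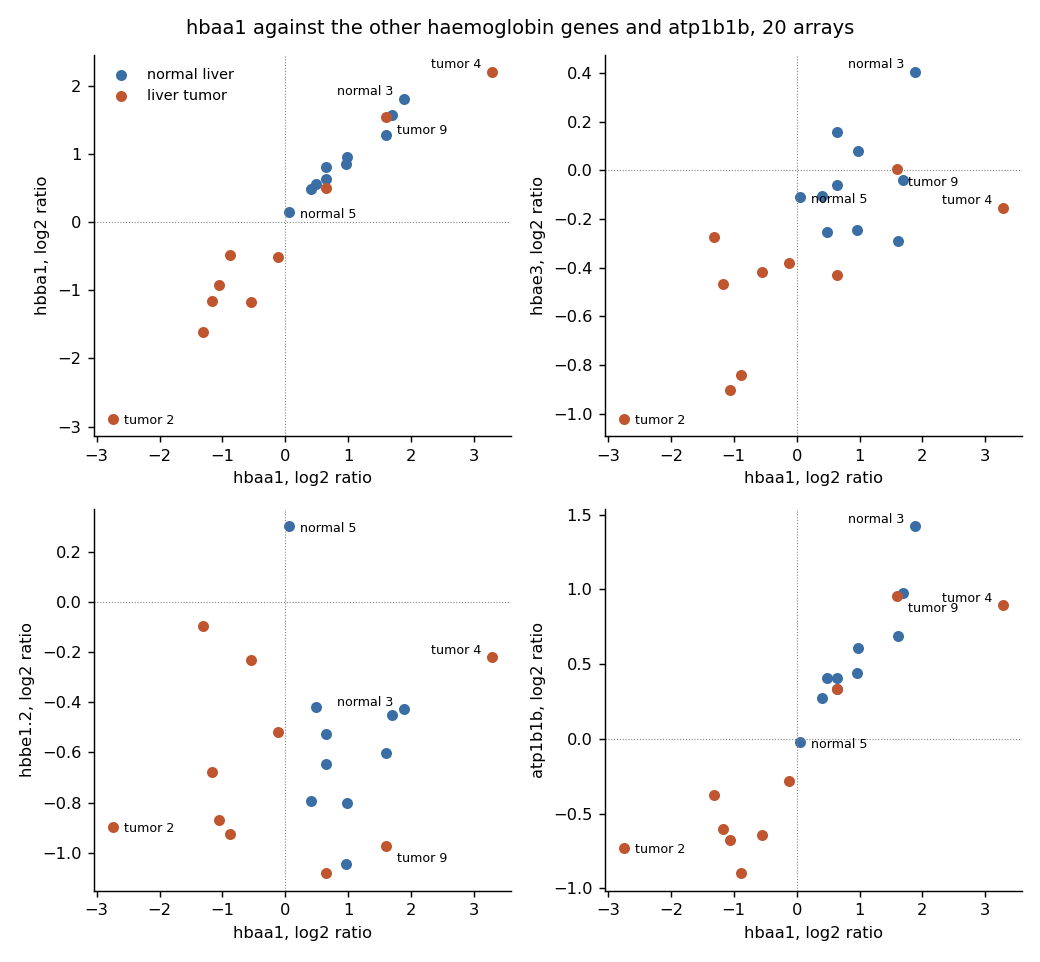
Log2 ratio of hbaa1 (horizontal axes) against that of hbba1, hbae3, hbbe1.2 and atp1b1b on each array, with normal arrays in blue and tumor arrays in red, and r given for deviations from the group means. The points of hbaa1 and hbba1 lie along a single line through both groups (r = 0.975), those of hbaa1 and hbae3 scatter more widely (r = 0.648), those of hbaa1 and hbbe1.2 show no trend (r = 0.037), and atp1b1b, a sodium-potassium pump subunit, follows it (r = 0.880).

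Whether the members changed by different amounts was tested on their differences within each array, for all 6 pairs. After adjustment over the 6, no pair passed the permutation test, and 1 had an unadjusted p under 0.05. That pair, hbba1 minus hbbe1.2, changed by -1.25 between normal liver and tumor, with a permutation p of 0.0326 and 0.132 after adjustment. The change of hbaa1 minus hbae3 was -0.72 (adjusted permutation p 0.183) and that of hbba1 minus hbae3 was -0.92 (0.132). Without tumor 4 the 4 pairs of an adult with an embryonic gene passed, with changes of -1.08 to -1.50 and adjusted permutation p of 0.0204 to 0.0207. Without tumor 9, 3 pairs had an adjusted permutation p of 0.0412. They were hbba1 with each embryonic gene and the embryonic pair, hbae3 minus hbbe1.2. The pairs of hbaa1 with hbae3 and with hbbe1.2 did not pass there (adjusted permutation p 0.124 and 0.056). Whether the adult genes changed by more than the embryonic genes thus depended on single tumors.

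The genes most like each member were listed by r of the deviations from the group mean over 20 arrays, as a description. Beside hbba1, the most like named gene to hbaa1 was atp1b1b, a beta subunit of the sodium-potassium pump, at r = 0.880 (0.928 within normal liver, 0.889 within tumors). Further down came or64c1, an odorant receptor gene, at 0.750, hbae3 at 0.648, si:dkey-238d18.10 at 0.641 and aldh3a2a, a fatty aldehyde dehydrogenase, at 0.613. The last of the 8 were pacsin2, a membrane-shaping protein gene, at 0.561 and ksr1b, a scaffold of kinase signalling, at 0.543. The median r with hbaa1 over all features was 0.00 and the 95th percentile 0.298. In these arrays 11 unnamed probes were as close as the 8th named gene, at most 0.580.

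The gene atp1b1b had log2 ratios of -0.02, 0.42 and 1.42 (lowest, median, highest) in normal liver and -0.90, -0.49 and 0.96 in tumors. Its 3 tumor arrays above 0 were tumors 4, 7 and 9, the arrays on which both adult haemoglobin genes were also above 0. The gene was picked by its r with hbaa1 on these same arrays, so this overlap is part of that r and no separate result. The level of atp1b1b was lower in tumors by a log2 difference of -0.76 ± 0.24 (SE), with an adjusted p of 0.0456 by limma. That call was lost in 16 of 20 fits with 1 array left out. With the share of dim spots as a covariate its adjusted p was 0.754. The enzyme gene aldh3a2a was lower by -1.11 ± 0.19 (SE; adjusted p 0.000979).

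Different genes ran with the embryonic members. With hbae3 these were musk, a muscle receptor kinase (r = 0.821), myo3a, an unconventional myosin (0.796), mtnr1ba, a melatonin receptor (0.794), fabp3, a fatty acid carrier (0.787), and ghrb, a growth hormone receptor (0.782). Among them fabp3 was lower in tumors by a log2 difference of -1.91, ghrb by -2.67 and ppp1r3ca, a glycogen-targeting phosphatase subunit (r = 0.764), by -1.62, with adjusted p of 0.00108, 0.000408 and 0.000144 by limma. The receptor gene mtnr1ba was also lower, by a log2 difference of -0.67 (adjusted p 0.0103 by limma). The remaining genes of the 8 were prmt8b, an arginine methyltransferase (r = 0.777), and capn9, a calpain protease (0.758), neither of which was called. Of the 8, limma called 4, against 10.8% of all features. The 95th percentile of r with hbae3 over all features was 0.558, well above that for hbaa1. As close to hbae3 as the 8th named gene were 21 unnamed probes, the closest at 0.875, above musk.

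With hbbe1.2 the closest named genes were hdr, a death receptor of blood-forming cells (r = 0.885), pth3r, a parathyroid hormone receptor (0.850), epoa, which encodes erythropoietin (0.813), and esr1, an oestrogen receptor (0.791). The others of the 8 were rnf180b (0.790), tmem266 (0.787), glra3 (0.781) and utp18 (0.765). Of the 8, 7 were above 0 on at most 2 of the 20 arrays. All 8 had their highest normal value on normal 5, the array on which hbbe1.2 was above 0, and 7 of 8 had their highest tumor value on tumor 4. The 8 were picked by their r with hbbe1.2 on these same arrays, so shared high arrays are part of that r and no separate result. Without normal 5 the r of the 8 genes, which were picked with that array included, ranged from 0.652 to 0.855. As close to hbbe1.2 as the 8th named gene were 12 unnamed probes, at most 0.851, and the 95th percentile over all features was 0.439. Between tumor and normal liver limma called 0 of the 8, against 10.8% of all features, with 0 of the 8 at an unadjusted p under 0.05.

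Other genes of the red cell were taken from lists chosen with earlier results of these data known. Of 23 listed erythroid regulators 12 were measured and none was called by limma, with 0 at an unadjusted p under 0.05 and 0 by the rank-sum test. Their median difference was 0.00, against -0.01 over all features. Of all features limma called 10.8% and the rank-sum test 11.8%. The regulator tal1 differed by -0.34 ± 0.20 (SE; adjusted p 0.296), the progenitor factor myb by 0.89 ± 0.53 (0.301) and the cytokine-receptor kinase jak2a by 0.23 ± 0.15 (0.364). Of the others, gata1a, a red cell transcription factor, differed by 0.34 (adjusted p 0.426) and klf1, which switches on adult globin genes in mammals, by 0.00. The r of these 12 genes with hbaa1 ran from -0.255 to 0.338. With hbae3 it ran from -0.422 (myb) to 0.664 (tal1), where the 95th percentile over all features was 0.558. These r were not tested.

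In haem synthesis and erythroid iron uptake 8 of 26 genes were measured and 1 was called, where 10.8% of all features were called. The median difference of the 8 was 0.18. The called gene was cpox, which encodes coproporphyrinogen oxidase, higher in tumors by 0.80 ± 0.21 (SE; adjusted p 0.0151 by limma). The iron-sulphur cluster gene glrx5 differed by 0.47 ± 0.22 (SE; adjusted p 0.186) and the iron-responsive RNA-binding protein gene ireb2 by 0.20 ± 0.13 (0.330). The first enzyme of the pathway in red cells, alas2, ranged from -0.81 to 0.64 in normal liver and from -1.09 to 0.19 in tumors. It differed by -0.07 ± 0.16 (SE), with an adjusted p of 0.830, and its r with hbaa1 was 0.182.

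Of 32 genes of the red cell membrane and cytosol 10 were measured and 1 was called, where 10.8% of all features were called. The median difference of the 10 was -0.12. The gene hk1, a hexokinase, was higher in tumors by 0.77 ± 0.21 (SE; adjusted p 0.0230 by limma). The actin-capping gene tmod4 differed by -0.59 ± 0.22 (SE; adjusted p 0.0899) and mafbb by 0.39 ± 0.17 (0.147). The carbonic anhydrase gene cahz, active in fish red cells, had lowest and highest values of -0.30 and 1.16 in normal liver and of -0.68 and 1.33 in tumors. It differed by -0.42 ± 0.23 (SE), with an adjusted p of 0.248, and its r with hbaa1 was 0.421, the highest of the 10. Averaged over the 10 genes, the log2 ratio was -0.18 to 0.24 on normal arrays and -0.30 to 0.21 on tumor arrays.

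Of 27 genes for clearance and storage of haem, haemoglobin and iron 8 were measured, of which 2 were called lower and 1 was called higher in tumors. Over all features 4.94% were called lower and 5.91% higher. The haem scavenger gene hpxb, a haemopexin, was lower by a log2 difference of -1.49 ± 0.34 (SE; adjusted p 0.00752 by limma). The haemoglobin scavenger gene hp, a haptoglobin, was lower by -1.11 ± 0.30 (SE; adjusted p 0.0195). The ferritin heavy chain gene fth1a was higher by 0.81 ± 0.24 (SE; adjusted p 0.0336), a call lost in 11 of 20 fits with 1 array left out. Of the 9 hepatocyte markers 5 were called lower as well, namely rbp4 (-4.03), apoa1a (-3.63), fabp10a (-3.11), cp (-2.29) and apoba (-1.49), with a median difference of -1.49, and their part in the values of hp and hpxb was not tested. The r of the 8 genes with hbaa1 ran from -0.30 to 0.20.

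Of the other globins 1 of 5 was measured, ngb, which encodes neuroglobin. It differed by -0.36 ± 0.13 (SE), with an adjusted p of 0.0897 by limma.

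Markers of other cells of blood and vessels were read beside the haemoglobin genes. Of 25 leukocyte genes 14 were measured and 0 were called by limma, against 10.8% of all features. Of these 14, 2 had an unadjusted p under 0.05 and 1 was called by the rank-sum test, which called 11.8% of all features. The mean log2 ratio of the 14 genes was -0.03 to 1.40 on normal arrays and -0.03 to 2.02 on tumor arrays. The macrophage gene mpeg1.1 differed by 1.19 ± 0.44 (SE; adjusted p 0.0858), the lymphocyte recombination gene rag2 by -0.34 ± 0.12 (0.0649) and cd74a, of antigen presentation, by 0.84 ± 0.42 (0.213). Of 25 endothelial and thrombocyte genes 6 were measured and 0 were called by limma, with 1 at an unadjusted p under 0.05 and 0 by the rank-sum test. The vessel receptor gene tie1 differed by -0.42 ± 0.19 (SE; adjusted p 0.169), tek, its relative, by -0.26 ± 0.15 (0.266) and kdrl, a VEGF receptor, by -0.34 ± 0.23 (0.351). The part of blood content in the haemoglobin values was not tested.

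Genes of the hypoxia response were measured for 10 of 26, with 2 higher and 2 lower in tumors and a median difference of 0.28. Over all features 5.91% were called higher and 4.94% lower. The lactate dehydrogenase gene ldha was higher by 1.88 ± 0.43 (SE; adjusted p 0.00731 by limma) and hif1ab, a hypoxia-inducible factor, by 0.57 ± 0.16 (SE; adjusted p 0.0259). The growth factor gene vegfab was lower by a log2 difference of -1.36 ± 0.25 (SE; adjusted p 0.00144) and epas1a, a second hypoxia-inducible factor, by -0.80 ± 0.24 (SE; adjusted p 0.0346), a call lost in 7 of 20 fits with 1 array left out. The erythropoietin gene epoa, whose hormone drives red cell formation, differed by -0.23 ± 0.46 (SE; adjusted p 0.788).

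**Figure D5:**
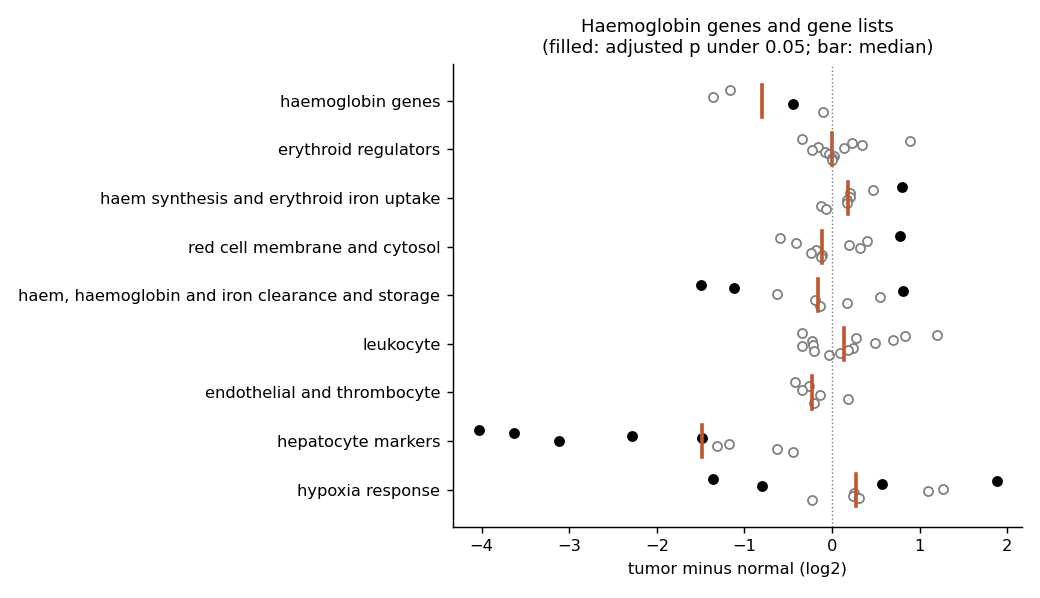
Difference in log2 ratio between tumor and normal liver (horizontal axis) of each measured gene of the lists, 1 line per list. The haemoglobin genes are the top line, called genes are filled and a bar marks each median. The list of other globins, with ngb alone measured, is not drawn. Hepatocyte markers reach -4.03, while erythroid regulators lie between -0.34 and 0.89 with no called gene.

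Genes that flank the cluster on chromosome 3 were looked at last. Of 10 measured neighbours outside it 2 were called, where 10.8% of all features were called. Differences of the 10 ran from -0.53 to 0.80 and r with hbaa1 from -0.267 to 0.205. The gene nprl3, which encodes a regulator of growth signalling and lies directly before hbaa2, had log2 ratios of -0.16, 0.43 and 1.16 (lowest, median, highest) in normal liver and -0.45, -0.13 and 0.16 in tumors. It was lower in tumors by a log2 difference of -0.51 ± 0.15 (SE; adjusted p 0.0323 by limma), a call lost in 5 of 20 fits with 1 array left out. Its r with hbaa1 was 0.0763. This r was not tested, and that with hbba1 is not given here. The gene ppan, active in ribosome formation, was higher by 0.80 ± 0.21 (SE; adjusted p 0.0180).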

How the data were processed

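The authors deposited 1 table of log2 ratios for 20 arrays, with 0 missing values. Per the labels, 20 µg of total RNA was reverse transcribed for each dye, Cy5 for the liver sample and Cy3 for the reference. How background and normalization were handled is not given in the sources used here, and the values were used as deposited. Of 16512 probes, 6088 had 1 symbol, 75 several and 10349 none. Probes of 1 symbol were averaged, giving 15780 features, 5356 of them named. Updating through Entrez numbers (6019 found in the RefSeq table, assembly GRCz12tu) changed 1 symbol.

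Groups were compared with lmFit and eBayes of limma 3.58.1 (R 4.3.3), Benjamini-Hochberg adjusted over all features at 0.05. Permutation tests were two-sided with 100000 resamples (Python 3.11.15, numpy 2.4.6, pandas 2.3.3, scipy 1.17.1). The fit was tested on simulated data with independent features and the same SD in both groups. The adult genes had unequal SD in the groups, so that test does not cover them. A spot counts as dim where its value, after the array's constant, matches (within 0.00011) a ratio of whole numbers from 1 to 10 on the log2 scale. Precision is limited by how many arrays there are.

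The members and gene lists were chosen with earlier results of these data known. Genes named are the members, the 8 named genes most like hbaa1 and hbae3, from each list the called members and the 3 of lowest p, and others named after their values were seen: alas2, cahz, klf1, gata1a, epoa, the flanking genes and the genes most like hbbe1.2. Pair, spread and relation tests were extended from hbaa1 and hbae3 to all 4 genes after the data were seen. Alternatives were centring, scaling and quantile normalization of arrays, probes unaveraged, dim share as covariate, a replicate block, rank-sum tests, array weights, robust eBayes and left-out arrays.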

Additional observations from a re-analysis of the deposited data

Results flagged for a closer look

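In 24 groups of values tested for a sample far from the others, 2 were singled out, and chance alone singles out about 1 in 20. The hbbe1.2 log2 ratio of normal 5 was 0.30, its gap to the next array 0.536 of the range of the 10 normal arrays, above the critical 0.466. The same array gave hbba1 minus hbbe1.2 at -0.16, with a gap of 0.477 of the range.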

How the results depend on the processing

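With 1 array left out, the number of haemoglobin genes called ran from 0 to 3 for tumor minus normal (probes unaveraged 0 to 3). It ran from 1 to 3 for normal minus reference and from 2 to 2 for tumor minus reference. In the same order, features called ran from 1358 to 2148, 3284 to 4362 and 3498 to 4721. Tumor minus normal ran from -1.56 to -0.886 for hbaa1, -1.66 to -1.09 for hbba1, -0.497 to -0.383 for hbae3 and -0.169 to -0.0133 for hbbe1.2; hbaa1 minus hbae3 from -1.08 to -0.503. Normal minus reference ran from 0.829 to 1.03 for hbaa1 and 0.810 to 0.994 for hbba1; tumor minus reference for hbaa1 from -0.621 to 0.0490, turning without tumor 2 (adjusted p 0.938 by limma). With the dim share as covariate 0 members were called for tumor minus normal, hbae3 at -0.27, where 54 of 15780 features were called. For normal minus reference 0 members and 1049 features were called, with hbba1 at 0.56 and hbbe1.2 at -0.36. Tumor minus reference kept 2 members, hbae3 at -0.40 and hbbe1.2 at -0.84, with 3971 features called. For tumor minus normal calls fell to 0 for haem synthesis, the red cell membrane, clearance and hypoxia and to 2 for hepatocyte markers. Without tumors 1 and 10, or normal 8 and tumor 10, 0 members were called, where 1620 and 1866 features were called. There hbae3 was at -0.35 and -0.42 (adjusted p 0.0986 and 0.0510 by limma). For normal minus reference, scaling and quantile normalization each left 1 member called, with 4207 and 4413 features called and hbba1 at 0.87 under both. The normal arrays alone gave hbaa1 0.93, then called. Quantile normalization called 2622 features for tumor minus normal. It gave 2 calls in the red cell membrane list, 1 each for other globins, leukocytes and endothelium, and a called spread of hbba1 of 1.11. It turned r of hbaa1 with hbbe1.2 to -0.0803 (tumors -0.0105) and of hbae3 with hbbe1.2 in tumors to -0.0397; centring turned the last in normal liver to -0.0837. Array weights called 3391 features against 1712 for tumor minus normal, and 1 member. For normal minus reference they called 4304 features and 1 member (hbba1 there at 0.72, adjusted p 0.268 by limma). For tumor minus normal they gave 4 calls for haem synthesis against 1 and 3 for the red cell membrane against 1. They also gave 2 for leukocytes, 1 for endothelium and 7 for hypoxia against 4. The cause was not tested.

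Arrays with the same replicate number showed little likeness (2 of 10 same-numbered pairs correlated over 0.1, range -0.152 to 0.122, and 1 of 10 normal arrays was most like its own number). This check cannot exclude a shared fish or day, and the labels do not say whether equal numbers mark one. With the number as a replicate block 0 members and 0 genes of the red cell membrane were called, hbae3 at -0.44 (adjusted p 0.0736 by limma), hbaa1 at -1.16 (0.122) and hbba1 at -1.36 (0.0511), with 1253 features called.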
